A study of Mus musculus with 6 samples.

Results

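The genes described here activate plasminogen or hold its activation in check. They were taken as a list of 6 symbols (Plau, Plat, Plaur, Serpine2, Serpinb2 and Serpinf2) and found by probe sets annotated to that symbol alone. Of the 6, 5 had such a probe set, 1 each, among 19938 genes so measured. Serpine2, which encodes the inhibitor protease nexin-1, had no probe set of 1 symbol in the annotation used and was not analysed here. Each of the 5 was measured on all 6 arrays.

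Plasminogen is a circulating zymogen that becomes plasmin, the protease that dissolves fibrin, when it is cut by urokinase (Plau) or by tissue plasminogen activator (Plat). Urokinase works mainly at cell surfaces, where its receptor uPAR (Plaur) holds it, and plasmin made there also opens the matrix and activates metalloproteinases and latent growth factors. The inhibitors act at separate steps. PAI-2 (Serpinb2) blocks the activators, above all urokinase, and alpha-2-antiplasmin (Serpinf2), made chiefly in liver, blocks plasmin itself. Tissue plasminogen activator is a product of the vessel wall, and in mice urokinase is known for its part in remodelling of the injured heart.

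The samples were heart RNA of mice aged 6 months (postnatal day 180), 1 sample per Affymetrix Mouse Gene 1.0 ST array. Each sample is called a heart here. The series asked what loss of Id1 and Id3 in the vasculature does to the heart. Id proteins keep E proteins off DNA. The Id cKO heart was Tie2Cre+Id1F/-Id3-/-, so that its Id3 was null in all cells, and its remaining floxed Id1 allele was open to Tie2Cre, a Cre transgene active in endothelial and blood cells. The incubated pair was 1 Id cKO heart treated with recombinant mouse IGFBP3, a binding protein of insulin-like growth factors, and 1 untreated Id cKO heart. Their labels name no alleles. The Id control group held 2 unlike genotypes, Id1F/+Id3-/- (Id control 1) and Tie2Cre+Id1-/-Id3+/- (Id control 2), and the last heart was wild type (WT). Every group but Id control was thus 1 array. The sources used here state neither the genetic background nor whether animals were pooled, so the spread between arrays may be in part technical. In the Id control pair it also holds the difference between 2 genotypes.

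The deposited levels were log2 values, and the number of arrays limits the precision. The array medians were 5.77 in Id cKO, 5.74 and 5.73 in the Id controls and 5.83 in WT, against 4.45 in the treated and 4.51 in the untreated heart, so the incubated pair was set beside the others only after quantile normalization. Heart muscle markers were high on every array (a mean of 12.4 to 13.5 over 6 genes). Atrial content differed. Myl7, a gene of atrial muscle, was at 12.27 in Id control 2, against 5.38 in Id cKO, 5.31 in Id control 1 and 5.28 in WT (as deposited). Myl4 and Sln were also highest in Id control 2 among these 4 arrays, while the atrial markers Bmp10 and Nppa were not. Every comparison with Id control 2 carries this difference in tissue. As deposited, Id1 was at 6.48 in Id cKO, against 8.10 in Id control 1, 6.41 in Id control 2 and 8.14 in WT, and Id3 was at 4.69 in Id cKO, against 5.02, 7.32 and 7.18, which follows the alleles labelled for these 4 hearts. After quantile normalization the treated and untreated hearts had Id1 at 6.50 and 6.51 and Id3 at 5.03 and 4.74, against 6.07 and 4.24 in Id cKO and 7.79 and 6.81 in WT. Xist was at 8.15 or more in Id cKO and the Id controls and at 4.03 or less in the pair and WT, so that WT and the incubated hearts had a male pattern. A level of 6 was taken as the floor under which a gene was not tested.

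Urokinase was the member furthest from WT in the Id cKO heart, and tissue plasminogen activator and the urokinase receptor were higher as well. The 2 serpins measured stayed under the floor. Plau (chromosome 14, bases 20836662 to 20843388 in GRCm38.p6) was at 8.71 in Id cKO, against 6.98 in Id control 1, 7.01 in Id control 2 and 6.49 in WT. The Id cKO value lay above the other 3, which spanned only 0.52 from WT to the upper Id control. That made Plau 4.68-fold higher in Id cKO than in WT (2.23 on the log2 scale) and 3.28-fold higher than the mean of the Id controls. In heart RNA, a difference in the number of cells of a type and a difference in RNA per cell cannot be told apart. By rank, which needs no scaling between arrays, Plau stood above 87.6% of the genes on the Id cKO array and above 76.0% and 72.4% on the treated and untreated arrays, against 61.4% and 61.6% in the Id controls and 53.3% in WT.

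Plat (chromosome 8, bases 22757722 to 22782848) was at 8.41 in Id cKO, against 7.39 and 7.75 in Id controls 1 and 2 and 7.04 in WT. The Id cKO heart was again the highest of the 4, 2.58-fold above WT (1.37 on the log2 scale), but only 0.66 above Id control 2. The rank of Plat was 84.1% in Id cKO and 82.9% and 81.1% in the treated and untreated hearts, against 68.2%, 73.6% and 63.4% in Id control 1, Id control 2 and WT.

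Plaur (chromosome 7, bases 24460937 to 24475970), the receptor that concentrates urokinase at the cell surface, was at 6.54 in Id cKO, against 5.77 and 5.89 in the Id controls and 5.54 in WT. Its difference from WT was 1.00 on the log2 scale, which is right at the 2-fold limit, and among these 4 arrays it reached the floor in Id cKO alone. Of the 3 genes above the floor it had the lowest rank in the Id cKO heart (54.0%, against 41.0% and 43.5% in the Id controls and 34.9% in WT). On the treated and untreated arrays its rank was higher still, at 77.3% and 75.4%.

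RefSeq promoters (250 bases before the start site and 50 after it, GRCm38.p6) were at hand for 4 of the 6 genes, Plau and Plat not being among them. That of Plaur is shown because Plaur is the member with an entry that was higher in Id cKO, and that of Serpinb2 as the inhibitor of urokinase, which stayed under the floor. Capitals mark matches to the AP-1 motif TGANTCA, which reads alike on both strands, and neither window held the E-box letters CANNTG bound by E proteins. The first start site of Serpinb2 was used, and both windows lie on the plus strand.
Plaur, chr7:24462233-24462532: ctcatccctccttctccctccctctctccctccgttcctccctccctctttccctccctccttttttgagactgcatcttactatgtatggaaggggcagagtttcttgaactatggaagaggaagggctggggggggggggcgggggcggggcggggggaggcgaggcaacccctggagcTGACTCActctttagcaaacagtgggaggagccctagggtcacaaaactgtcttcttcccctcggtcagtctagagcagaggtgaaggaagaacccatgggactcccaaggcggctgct
Serpinb2, chr1:107511173-107511472: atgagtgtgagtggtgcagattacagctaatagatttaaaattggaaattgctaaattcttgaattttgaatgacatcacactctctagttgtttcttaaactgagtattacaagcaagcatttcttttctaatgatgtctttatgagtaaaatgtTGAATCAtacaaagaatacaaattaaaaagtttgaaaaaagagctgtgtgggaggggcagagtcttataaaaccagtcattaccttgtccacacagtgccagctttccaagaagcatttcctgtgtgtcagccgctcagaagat
The match is TGACTCA at position -69 from the start site in Plaur and TGAATCA at -94 in Serpinb2. The GC box letters GGGCGG, searched on both strands, matched 3 times in the Plaur window and 0 times in that of Serpinb2. Of 32817 promoter windows of the same length, 7.81% held an AP-1 match, 72.3% an E-box match and 35.6% a GC box match. The Serpine2 window held 1 E-box match, 0 AP-1 matches and 6 GC box matches, and that of Serpinf2 held none of the 3 motifs. The matches are letters in a window and were not measured as binding sites.

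The inhibitors were dim. Serpinb2 (chromosome 1, bases 107500892 to 107525600) was at 3.97 in Id cKO, against 3.68 and 4.05 in the Id controls and 4.03 in WT. Serpinf2 (chromosome 11, bases 75431736 to 75439501) was at 5.78 in Id cKO, against 5.98 and 5.69 in the Id controls and 5.90 in WT. For both genes the Id cKO value lay inside the range of the other 3 arrays, and neither reached the floor on any of the 6. Values this low are close to the array's background, so a change in them may not have been measurable.

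**Figure D1:**
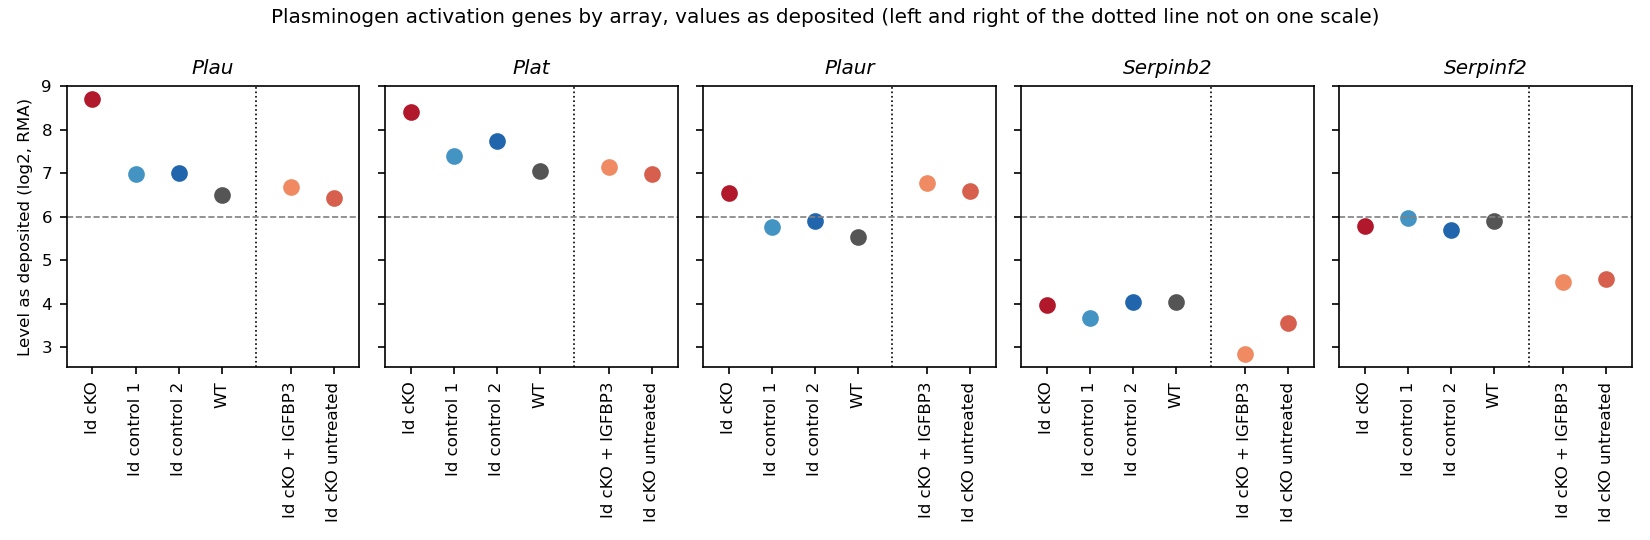
Level of each measured gene on each array (log2, as deposited); the y axis is shared, the dashed line is the floor of 6, and the dotted line parts 4 arrays from the incubated pair, which is on a lower scale. Plau, Plat and Plaur are highest in Id cKO among the 4 arrays on the left, while Serpinb2 and Serpinf2 stay under the floor on all 6.

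Against WT, 3 of the 5 measured genes were at least 2-fold higher in Id cKO, where 2.2% of 11478 genes were, and 0 were 2-fold lower, where 0.967% were. Plau and Plat exceeded the floor in both hearts and Plaur in Id cKO only. This is 1 array against 1 array and has no replicate check, and the 2 hearts also differ in sex pattern. The members were chosen with earlier results of these data known.

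Against the Id controls, which share the female pattern, Plau kept the widest margin. It was 1.73 above Id control 1 and 1.70 above Id control 2 (log2), and the 2 controls differed from each other by 0.03. Plau was the member at least 2-fold above both, where 0.698% of 11310 genes were. Plat was 1.02 and 0.66 above Id controls 1 and 2, and Plaur 0.77 and 0.65. Each of the 3 lay above both control arrays, as 33.5% of the genes did. In limma over the 6 arrays the difference was 1.72 ± 0.14 for Plau (SE, adjusted p = 0.11), 0.84 ± 0.20 for Plat (adjusted p = 0.271) and 0.71 ± 0.15 for Plaur (adjusted p = 0.236), so none passed 0.05. That limit was passed by 0.0177% of the genes, all of them higher. The test rests on the spread of the Id control pair alone, which also holds the pair's differences in genotype and atrial content.

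The Id controls themselves lay above WT by less. Plau averaged 7.00 ± 0.02 in Id control (SD, n = 2), 0.51 ± 0.14 above WT (limma SE), and Plat 7.57 ± 0.25 (SD, n = 2), 0.53 ± 0.20 above it. Plaur averaged 5.83 ± 0.09 (SD, n = 2) and was 0.29 above WT, with both groups under the floor. On both Id control arrays each of these 3 genes was higher than in WT, as were 45.5% of 11407 genes. None was 2-fold higher, where 0.105% were, and none passed in limma (adjusted p = 0.629 for Plau and for Plat; 0 genes passed and 828 had an unadjusted p under 0.05). Centring each array on its median put the median difference of all genes at 0.17, against 0.05 as deposited, and Plau at 0.60. It also gave 17 genes 2-fold higher and 7 lower, against 12 and 11 as deposited. The order of Id cKO above both Id controls, and of both Id controls above WT, held for Plau, Plat and Plaur and for 12.5% of 11310 genes.

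The activators and the receptor stood within 0.26 of each other in the IGFBP3-treated and untreated hearts (log2). Plau was at 6.68 in the treated and 6.42 in the untreated heart, Plat at 7.15 and 6.98, and Plaur at 6.77 and 6.60. These differences of 0.26, 0.17 and 0.17 compare with a median of 0.05 over 7474 genes. All 3 lay inside the middle 50% of those genes, which ran from -0.255 to 0.329. None of the 5 genes was 2-fold higher, where 0.495% of the genes were, or 2-fold lower, where 0.803% were. After median centring the split of all genes turned, with 80 higher and 44 lower, against 37 and 60 as deposited. Serpinb2 was at 2.84 in the treated and 3.55 in the untreated heart, a difference of -0.70 between 2 values under the floor, and Serpinf2 at 4.49 and 4.56. With 1 array on each side the error in limma comes from the Id control pair. By that fit the difference was 0.26 ± 0.15 for Plau (SE, adjusted p = 0.345), 0.17 ± 0.23 for Plat (adjusted p = 0.661) and 0.17 ± 0.17 for Plaur (adjusted p = 0.551).

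**Figure D2:**
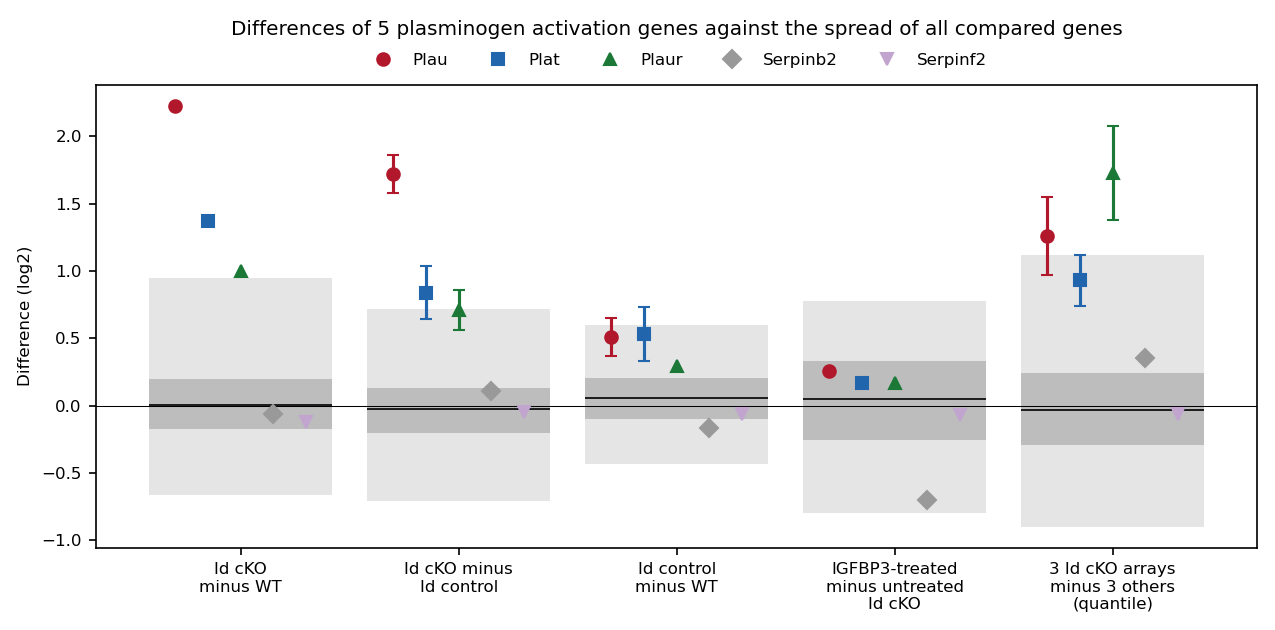
Difference of each gene in each comparison (y axis, log2; bars are limma SE where the comparison was tested), over the middle 50% (dark grey), the middle 95% (light grey) and the median (line) of all compared genes. Plau and Plat lie above the light band in Id cKO against WT and against Id control, and Plaur does so against WT. Plau and Plaur lie above it for the 3 Id cKO arrays against the 3 others. Between treated and untreated hearts all 3 lie inside it. Serpinb2 and Serpinf2 are under the floor in every comparison.

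Quantile normalization over the 6 arrays allowed all 3 hearts of the conditional knockout to be set against the 3 others. Plau, Plat and Plaur were then higher in every Id cKO heart than in any other heart. Plau was at 8.33, 7.47 and 7.25 in Id cKO, treated and untreated hearts, against 6.58, 6.60 and 6.07 in Id control 1, Id control 2 and WT. Plat was at 8.03, 7.93 and 7.80 in the 3 Id cKO hearts, against 6.98, 7.31 and 6.67 in the others. Plaur was at 6.12, 7.55 and 7.43, against 5.36, 5.51 and 5.04. The 2 sets did not overlap for any of the 3 genes, with gaps of 0.65, 0.49 and 0.62, and 14% of 10099 genes were likewise higher in all 3 Id cKO hearts. Serpinf2 was at 5.37 ± 0.02 in the Id cKO hearts and 5.43 ± 0.13 in the others (SD, n = 3 each), and Serpinb2 was at 3.88 ± 0.48 and 3.54 ± 0.20, with overlap.

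In limma, Plau rose by 1.26 ± 0.29 (SE, adjusted p = 0.0487), Plat by 0.93 ± 0.19 (adjusted p = 0.036) and Plaur by 1.73 ± 0.35 (adjusted p = 0.0364), that is 2.4-fold, 1.91-fold and 3.32-fold. The same limit was passed by 2.55% of the genes in the higher direction and 1.81% in the lower. Plaur was under the floor on all 3 other arrays (5.04 to 5.51). It was therefore compared only through the Id cKO arrays, and its fold is taken from a level under the floor. With the array set as a block, the incubated pair makes up a set by itself. The difference is then that of the single Id cKO array from the 3 others, here and wherever the block is used below. It was 1.91 for Plau, 1.04 for Plat and 0.82 for Plaur, with no replicate of the Id cKO array. With the incubated pair left out and the other 4 arrays taken as deposited, so that both arrays and scaling changed and Id cKO was 1 array assumed to vary like the others, the differences were 1.89, 1.02 and 0.81, and none of the 3 passed (adjusted p = 0.0707, 0.231 and 0.171).

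The calls of the fit without the block also hung on single arrays. Plau did not pass without WT (adjusted p = 0.184), Id control 1 (0.135), Id control 2 (0.0953), the treated heart (0.154) or the untreated heart (0.0804). Plaur did not pass without any 1 of the same 5 arrays (adjusted p = 0.152, 0.125, 0.0724, 0.157 and 0.126). Plat did not pass without WT (0.152), Id control 1 (0.141), the treated heart (0.145) or the untreated heart (0.09), and passed without Id control 2 (0.0437). Without Id cKO all 3 passed, with differences of 0.94, 0.88 and 2.19, but 3302 genes did so there, against 441 with all arrays (258 higher and 183 lower), and the arrays set against each other were then the incubated pair and the rest.

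**Figure D3:**
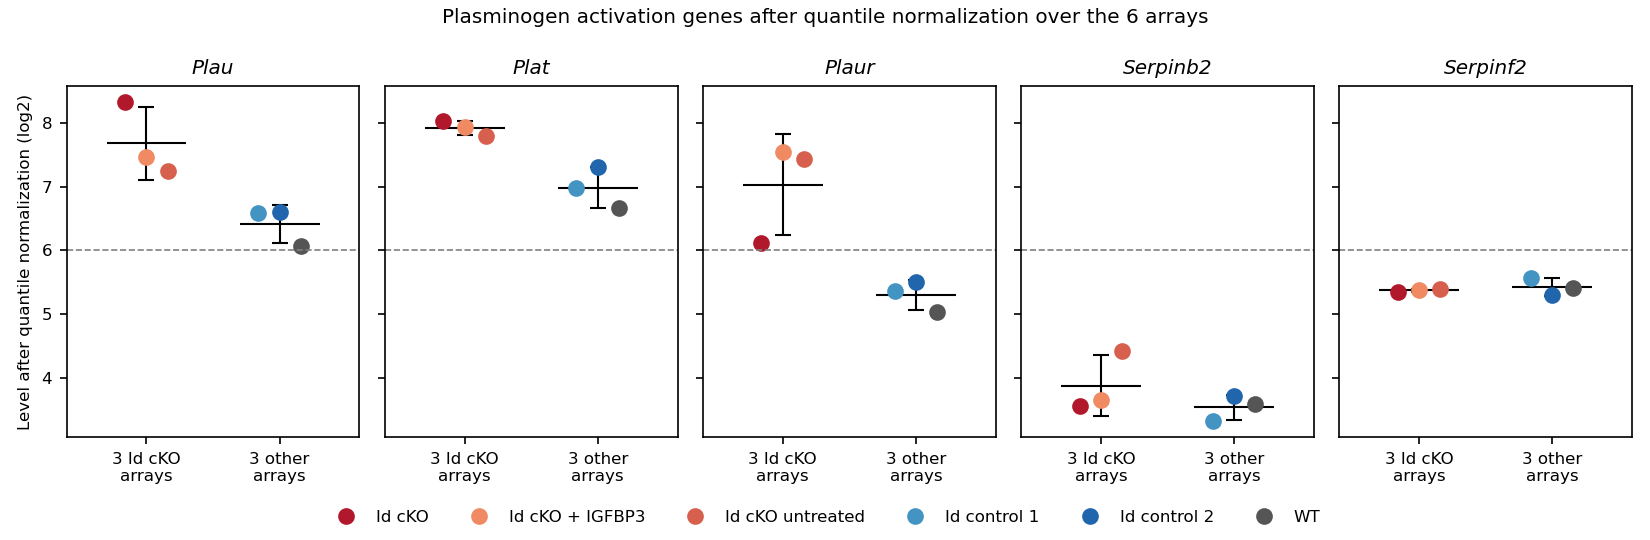
Level of each gene (log2, after quantile normalization) on the 3 Id cKO arrays and the 3 other arrays; bars are the mean and SD of 3 arrays, and the dashed line is the floor of 6. The sets do not overlap for Plau, Plat and Plaur, with Plau highest in Id cKO and Plaur highest in the treated and untreated hearts.

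Urokinase and its receptor were highest on different arrays. Averaged over the treated and untreated hearts, Plaur was 1.37 higher than in Id cKO, and Plau was 0.97 lower (log2, quantile-normalized). Plat was 0.16 lower, and after median centring it was at 8.04 in the treated heart, against 7.98 in Id cKO. Both incubated hearts were at least 2-fold above Id cKO for Plaur, as they were for 2.8% of 10143 genes, around a median of -0.03. Incubation, array set and sex pattern go together in this contrast and cannot be told apart.

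Other genes were ranked by how closely their pattern over the 6 arrays followed each member, as the root mean square difference after quantile normalization and centring of each gene on its mean. This is a description over 6 arrays that share their scaling. Nearest to Plau among 10400 genes were Upp1 (0.13), a uridine phosphorylase, Endod1 (0.16) and Ankrd1 (0.20), a stretch-responsive gene of heart muscle, where Plau itself varied by 0.73 around its mean. Nearest to Plat were Anxa2 (0.09), Ppm1e (0.10), a phosphatase, and Ackr2 (0.10), a scavenging chemokine receptor, around a variation of 0.51. Annexin A2 is a cell-surface receptor for tissue plasminogen activator and plasminogen. Nearest to Plaur were Esm1 (0.09), the endothelial proteoglycan endocan, Rnd1 (0.15) and Marcksl1 (0.15), around a variation of 0.99. Plat was 22nd in likeness to Plau (0.33), but Plau was only 489th in likeness to Plat. Plaur was far from both (0.82 from Plau and 0.65 from Plat).

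The rest of the plasminogen system was read from a longer list, chosen like the others with earlier results of these data known. Of 23 listed genes for plasminogen, its receptors, its clearance, its inhibitors and fibrinogen, 18 had a probe set and 11 reached the floor in Id cKO or WT. In Id cKO against WT 2 of those 11 were at least 2-fold higher (2.2% of all genes) and 0 lower (0.967%), with a median difference of 0.29, against 0.00 over all genes. They were Anxa2 (9.67 in Id cKO, against 8.69 and 9.21 in the Id controls and 8.44 in WT) and Vtn (9.17, against 8.70, 8.51 and 8.01), which encodes vitronectin, a matrix ligand of uPAR. Against both Id controls 0 of 11 were 2-fold higher or lower (0.698% and 0.424% of all genes), and the median was -0.03, as over all genes. Plg, the plasminogen gene, whose product reaches the heart from the liver, was at 5.61 in Id cKO, against 5.55 and 5.74 in the Id controls and 5.42 in WT, under the floor throughout.

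In the comparison of 3 Id cKO hearts with 3 others, 4 of 11 compared genes of this list passed in limma, 3 higher (2.55% of all genes) and 1 lower (1.81%). With the array set as a block 0 passed (0.416% of all genes higher and 0.168% lower). Anxa2 (0.93 ± 0.19, SE, adjusted p = 0.0384) and Vtn (1.34 ± 0.26, adjusted p = 0.034) rose. Also passing, and named after their values were seen, were Itgb3 (1.08 ± 0.23, adjusted p = 0.0392), the beta chain of an integrin that binds vitronectin, and Vldlr (-0.88 ± 0.18, adjusted p = 0.0388), a lipoprotein receptor that also clears protease complexes.

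Among the listed genes whose products plasmin or its activators act on, most of those compared were 2-fold higher in Id cKO than in WT. The list was chosen with earlier results of these data known, and it holds Igfbp3, whose product was the treatment. Its counts are therefore a description and not a test of plasmin targets. All 15 listed had a probe set and 11 reached the floor. Of these 11, 7 were at least 2-fold higher (2.2% of all genes) and 0 lower (0.967%), with a median of 1.04, against 0.00 over all genes. Beside Igfbp3 they included the metalloproteinase genes Mmp14 (1.95) and Mmp3 (1.01). Mmp3 reached the floor only in Id cKO among these 4 arrays. Fibronectin (Fn1, 1.98), thrombospondin-1 (Thbs1, 1.42), Tgfb1 (1.04) and Pdgfc (1.20), a growth factor that tissue plasminogen activator cleaves into its active form, made up the rest. Against both Id controls 2 of 11 were 2-fold higher (0.698% of all genes), Mmp14 (by 1.18 or more) and Igfbp3 (by 3.70 or more), around a median of 0.93. Between treated and untreated hearts 1 of 10 compared genes was 2-fold lower (0.803% of all genes), Tgfb1, at 7.37 in the treated and 8.68 in the untreated heart.

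Over the 3 Id cKO hearts, 6 of 11 of these genes passed as higher in limma, as 2.55% of all genes did. They were Mmp3 (1.76 ± 0.32, SE, adjusted p = 0.0272), Mmp14 (1.68 ± 0.23, adjusted p = 0.0132), Fn1 (1.57 ± 0.28, adjusted p = 0.0272), Thbs1 (3.16 ± 0.69, adjusted p = 0.0423), Igfbp3 (3.45 ± 0.18, adjusted p = 0.000157) and the growth factor gene Vegfa (0.94 ± 0.13, adjusted p = 0.0141), which was named after its value was seen. Mmp3 was under the floor in Id control 1, Id control 2 and WT (5.12, 5.43 and 5.14, quantile-normalized). It was thus compared only through the Id cKO hearts. With the array set as a block 1 passed (0.416% of all genes), Igfbp3. Thbs1 was at 10.78 in the treated heart and 11.70 in the untreated one, against 8.58 in Id cKO (quantile-normalized), and its difference with the block was 1.39.

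**Figure D4:**
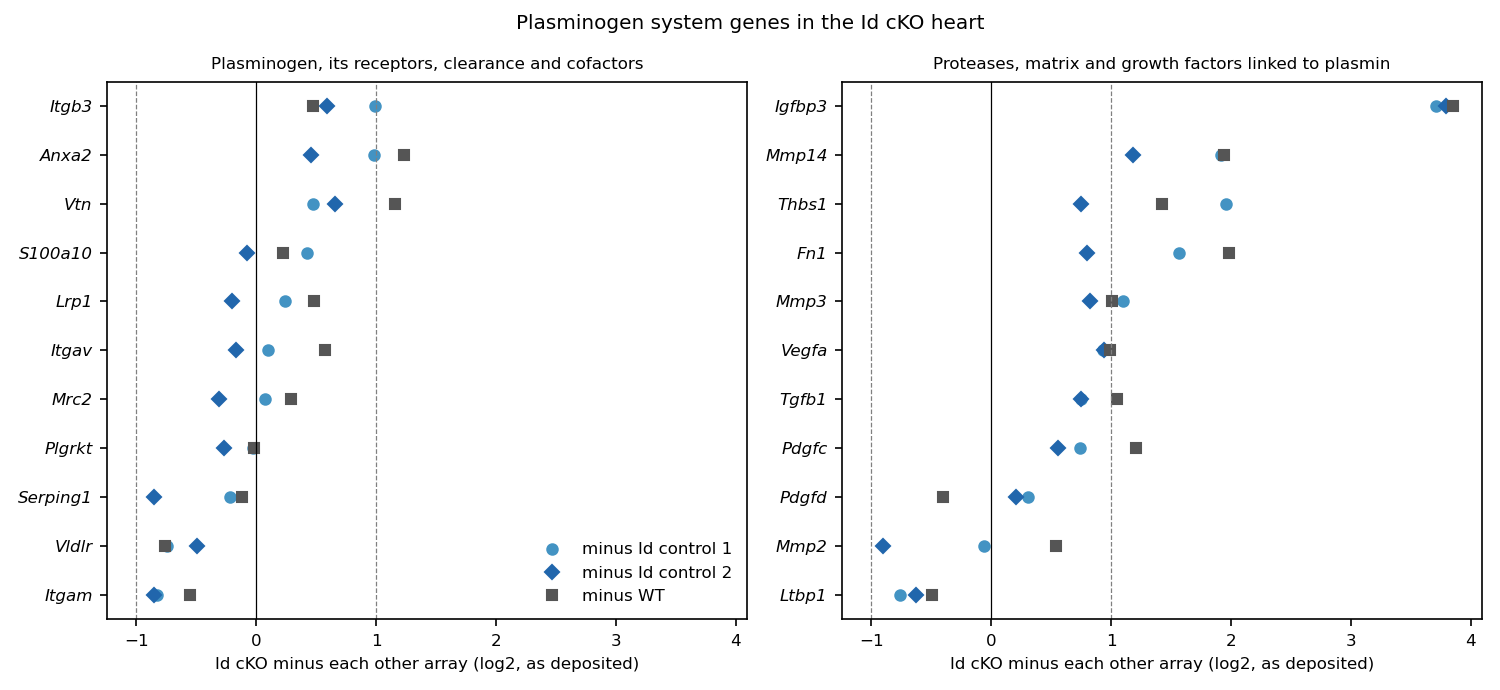
Id cKO minus each of the Id controls and WT (x axis, log2, as deposited) for the genes of 2 lists that reached the floor; dashed lines mark 2-fold. Igfbp3 and Mmp14 lie beyond the 2-fold line against all 3 arrays, while no gene of the left panel does.

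Among 14 listed coagulation genes of the vessel wall, 13 were measured. F2r, the thrombin receptor PAR1, was at 8.62 in Id cKO, against 7.95 and 8.65 in the Id controls and 7.56 in WT, so that it was 1.06 above WT but level with Id control 2. Tfpi, the endothelial inhibitor of the tissue factor pathway, was at 8.16, against 9.34, 9.16 and 9.06, the lowest of the 4 arrays. F13a1, the clot-stabilising transglutaminase chain carried by macrophages and platelets, was at 7.43, against 8.46, 8.73 and 7.96. Tfpi and F13a1 were the 2 of 10 compared genes 2-fold below both Id controls, where 0.424% of all genes were, and 0 were 2-fold higher. Neither passed in limma (adjusted p = 0.207 and 0.209). Of 12 other serpin genes, 6 reached the floor in Id cKO or WT, and 0 were 2-fold apart from WT or from both Id controls. Of all genes, 2.2% were 2-fold higher and 0.967% lower against WT, and 0.698% and 0.424% against both Id controls. The serpin medians were 0.54 against WT and 0.10 against Id control, where those of all genes were 0.00 and -0.03.

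Markers of other cells also differed between the arrays. Over 9 endothelial markers the mean level was 9.66 in Id cKO, against 9.13 and 9.11 in the Id controls and 9.04 in WT, and 8 of the 9 were highest in Id cKO among these 4 arrays, as 26.9% of all genes were. Of 7 macrophage markers, 5 were lower in Id cKO than on both Id control arrays and 1 was higher. Of all 11310 genes compared there, 4734 were lower and 3790 higher. Against WT 4 markers were lower and 3 higher, around a median of -0.05, where 5642 of 11478 genes were lower and 5835 higher. Cd163 was the marker furthest apart (5.84 in Id cKO, against 7.28 and 7.62 in the Id controls and 7.58 in WT). Platelet markers (5 genes) averaged 6.02 in Id cKO, against 6.36 and 6.27 in the Id controls and 7.07 in WT, and red cell markers (4 genes) 6.45, against 6.60, 6.50 and 7.39. Fibroblast markers (8 genes) averaged 8.93, against 8.95 and 9.70 in the Id controls and 8.47 in WT, and 1 of 8 was highest in Id cKO. Smooth muscle and pericyte markers (8 genes) averaged 8.57, against 8.56, 8.85 and 8.13, but they did not move together. Of the 8, 4 (Rgs5, Pdgfrb, Kcnj8 and Cspg4) were highest in Id cKO among these 4 arrays, as 26.9% of all genes were. Another 3 (Acta2, Myh11 and Tagln) were lower than on both Id control arrays, as 4734 of 11310 genes were.

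All 6 measured markers of neutrophils and monocytes stayed under the floor on every array after quantile normalization, as did 5 of 6 mast cell markers. Mesothelial markers (9 genes) averaged 6.10 in Id cKO, against 5.92, 6.49 and 6.16. In the incubated pair the quantile-normalized means were higher than in Id cKO for macrophage (7.39 and 7.61, against 6.54), fibroblast (9.37 and 9.29, against 8.54) and endothelial markers (9.67 and 9.45, against 9.26). They were also higher for platelet (7.04 and 6.58, against 5.59) and red cell markers (7.34 and 7.22, against 6.03). Atrial markers averaged 10.01 in Id control 2, against 6.50 in Id control 1. The part of these cell types in the levels of Plau, Plat, Plaur and F13a1 was not tested.

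**Figure D5:**
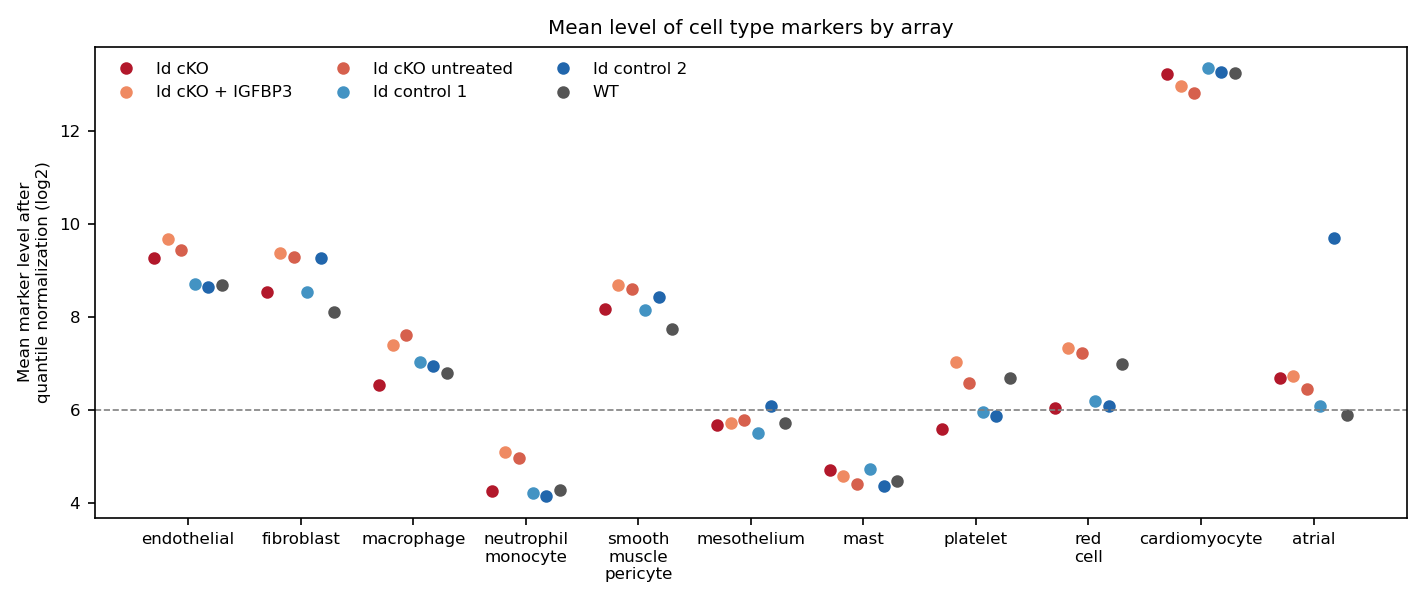
Mean level (y axis, log2, after quantile normalization) of the markers of each cell type on each array; the dashed line is the floor of 6. Endothelial markers are higher on the 3 Id cKO arrays than on the others, fibroblast and macrophage markers are not, and atrial markers stand out in Id control 2.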

How the data were processed

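Heart RNA of 6 samples was measured on Affymetrix Mouse Gene 1.0 ST arrays. The deposited log2 values were made by the authors with Affymetrix Expression Console and RMA, per the submitters' processing notes, which name no versions. By GEO's platform annotation 21789 of 35557 probe sets carried 1 symbol, 1621 several and 12147 none, and only the first kind was used. The probe set with the highest mean stood for its gene.

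Differences are between deposited log2 values within the set of 4 arrays or within the incubated pair, and between quantile-normalized values across the sets. Genes with a higher group mean of at least 6 were compared. A gene was called by size at 2-fold or more, the fold limit of the design text (from both Id control arrays where they were involved), and by test in limma 3.58.1 (R 4.3.3) at a Benjamini-Hochberg adjusted p under 0.05 over all compared genes. The fit had 5 groups, with 1 residual degree of freedom from Id control, or 2 groups of 3 arrays. It was run on simulated data, whose outcome is not given here. With so few degrees of freedom, a gene that did not pass may still differ. Figures and tables used Python 3.11.15.

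The members, lists and tests were chosen with earlier results of these data known. All members were named; list genes were named if 2-fold from WT or from both Id controls, with Plg, and the 3 genes nearest each member were named. Alternatives were other scalings, floors of 8 or none, averaging of probe sets, a mean-variance trend, the array set as a block, 4 arrays only, leaving out each array, and, chosen after seeing the data, leaving out the incubated pair with values as deposited.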

Additional observations from a re-analysis of the deposited data

How the results depend on the processing

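The differences of Plau, Plat and Plaur kept their sign in every comparison under every alternative run. In Id cKO against WT they ranged over the scalings, floors and probe set rules from 2.21 to 2.29, from 1.34 to 1.43 and from 1.00 to 1.08. By limma 0 members and 4 genes were called there (Plau had an adjusted p of 0.0678, and 0.0327 to 0.0821 over 6 alternatives, 2 of which passed), and with a floor of 8 223 genes were at least 2-fold apart, against 364. Between Id cKO and Id control, 73 genes were 2-fold apart with a floor of 8, against 127. Leaving out 1 Id control array gave 286 to 300 genes and 1 to 2 members, Plat being the second without replicate 2. Between Id control and WT the count was 12 with a floor of 8, against 23, it was 57 to 203 when 1 Id control array was left out, and 1 gene passed in limma without a floor. Between treated and untreated hearts 97 genes were 2-fold apart, against 39 with a floor of 8, 178 with none, 146 after cyclic loess and 0 by limma, where 1716 had an unadjusted p under 0.05. For the 3 Id cKO arrays against the 3 others, 3 members and 441 genes passed. The array set as a block gave 1 and 59, and leaving out the incubated pair, with the other values as deposited, 0 and 26. Leaving out 1 array gave 0 to 3 members and 24 to 3302 genes. With a floor of 8 no member was tested, which gives 0. Without a floor Plau had an adjusted p of 0.0659. Over the 13 alternatives that tested it, the adjusted p of Plau ranged from 0.00866 to 0.184. Without 1 Id control array the fit in 5 groups has no residual degrees of freedom, so no test was run there. No paired analysis was possible because the labels give no replicate numbers. Signals near the floor limit what can be said of Serpinb2 and Serpinf2.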
